A study of Mus musculus and Homo sapiens with 4 samples.

Results

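The most heavily read coding regions of mouse embryonic stem cells (ES cells) are described here, with the ribosome footprints that lie in and around them under the elongation inhibitors cycloheximide and emetine. They were chosen by their own read counts: a coding region counted in both mouse libraries, with 100000 or more coding reads summed over the pair, was included. This took 250 of 43857 coding regions, out of 93380 mouse transcripts listed. The cells were the E14 line (129/Ola background), cultured with LIF and without feeder cells. Cultures were exposed for 60 s to cycloheximide at 100 µg/ml or for 60 s to emetine, for which no source used here states a dose. Each had 1 library, and no untreated library was analysed here. A further pair of libraries from HEK cells holds no mouse coding region and was not used.

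With 1 library per inhibitor there is no test of any difference below, no p-value is given, and every value compares 2 libraries. Reads are counts per coding region and not per base, and the files hold no lengths, so a long coding region can enter by its length. The regions are therefore called the most read, not the most translated, and it could not be checked whether they are the latter. The files carry Ensembl transcript identifiers, of which 0 occur in the name tables used here, so no gene is named and most regions are given by their rank in summed coding reads.

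A translating ribosome moves along the coding region codon by codon and protects the piece of message it covers from nuclease. Cycloheximide binds the large ribosomal subunit at the exit site and emetine binds the small subunit, and both block translocation, the step that carries the ribosome to the next codon. The 5' leader before the coding region is crossed by scanning small subunits and can hold short upstream reading frames that are translated. In the 3' trailer after the stop codon footprints are normally scarce, because ribosomes release the message at the stop codon. In many cells the messages that draw most footprints encode parts of the translation machinery and abundant structural proteins; whether that holds for these 250 regions was not tested.

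The 250 regions held a large share of all coding reads, and a smaller share with emetine. They took 30.2% of coding counts with cycloheximide (49291006 of 163107357) and 25.1% with emetine (19778289 of 78702902). The 14510 coding regions with 1000 to under 10000 summed reads, used as the comparison class below, took 21.4% with cycloheximide and 25.4% with emetine. Thus the few most read regions took more counts than that class under cycloheximide and about as many under emetine. Since the regions were selected on these counts, the shares describe the selection. Per region, the coding count ran from 68827 to 933570 with cycloheximide (median 110216) and from 25435 to 402252 with emetine (median 47404).

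**Figure D1:**
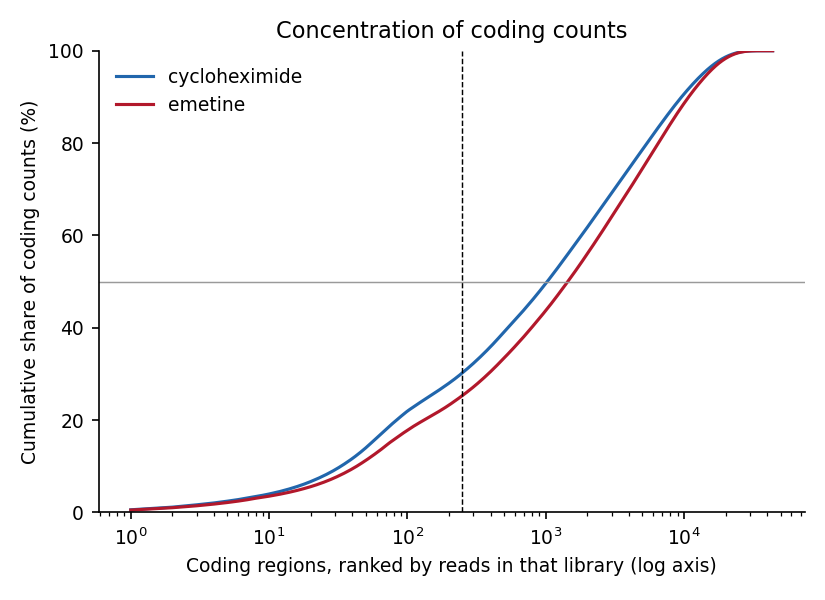
Cumulative share of coding counts (%) against coding regions ranked by reads in each library (log axis), with the dashed line at 250 regions and the grey line at 50%. The cycloheximide line lies above the emetine line at 250 regions, and 1028 coding regions hold 50% of the counts with cycloheximide against 1447 with emetine.

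The same regions headed both libraries. Of the 250 with the most coding reads with cycloheximide, 218 were also among the 250 with the most reads with emetine. The members included 243 of the first group and 225 of the second. Across members the counts of the libraries had a Spearman correlation of 0.934, a description over features that share reads and libraries.

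The first place was shared by a pair of transcripts with identical coding counts, 933570 reads with cycloheximide and 402252 with emetine, or 0.572% and 0.511% of all coding counts. The third had 826500 and 329407 reads and the fourth 662627 and 265705. After the scaling for depth given below, they were 1.32-fold, 1.43-fold and 1.42-fold lower with emetine.

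Many members repeat each other. Exactly equal coding counts tied 61 members into 23 groups. Members equal in each library at 2 significant digits were taken as a set, which gave 175 sets, the largest with 11 transcripts. Isoforms of a gene overlap, and no source used here states how reads with several matches were counted, so members are not separate observations. With regions of exactly equal counts counted once, which was chosen after seeing the data, the shares were 31.2% with cycloheximide and 25.8% with emetine.

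Ratios of emetine over cycloheximide were scaled so that the median of the 28604 coding regions with at least 100 summed reads has a log2 ratio of 0. On that scale the most read coding regions were lower with emetine almost throughout. Their median log2 ratio was -0.52, a level 1.43-fold lower, with quartiles at -0.62 and -0.37, while the comparison class had a median of 0.028 with quartiles at -0.21 and 0.26. The log2 ratio was below 0 in 242 of the 250 members, and lay between -0.7 and -0.3 in 168 of them (67.2%). Counting error is small at this depth: its standard error on the log2 ratio was 0.0027 to 0.010 per member, against a standard deviation of 0.26 across members. That spread is therefore wider than counting error, but variation between cultures was not measured.

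At least 1.5-fold lower were 81 members (32.4%), against 7.46% of all coding regions compared and 4.23% of the comparison class. Of the regions with 10000 to under 100000 reads, 9.26% passed that cut. At least 1.5-fold higher were 4 members (1.6%), against 8.17% of all coding regions compared. The comparison class had 5.04% above this upper cut, and the regions with 10000 to under 100000 reads 0.758%. High ratios were thus rarer in members than in the comparison class, but not rarer than in the regions nearest to them in reads. A 2-fold lower level was reached by 1 member (0.4%), against 1.19% of all coding regions compared, 0.283% of the comparison class and 0.414% of the regions with 10000 to under 100000 reads. The sum that chose the members contains both counts of the ratio, and nothing is read from these numbers beyond their description. Scaling to total coding counts, in which the members themselves weigh heavily, raises every log2 ratio by 0.24, and the members at least 1.5-fold lower then number 5 and those at least 1.5-fold higher 4. All 28604 regions shift with them, to 702 lower and 5754 higher. The distance between the median log2 ratios keeps its size, but the counts past 1.5-fold do not. The members at least 1.5-fold lower (2.0%) are then no larger a share than the 702 of 28604 regions.

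**Figure D2:**
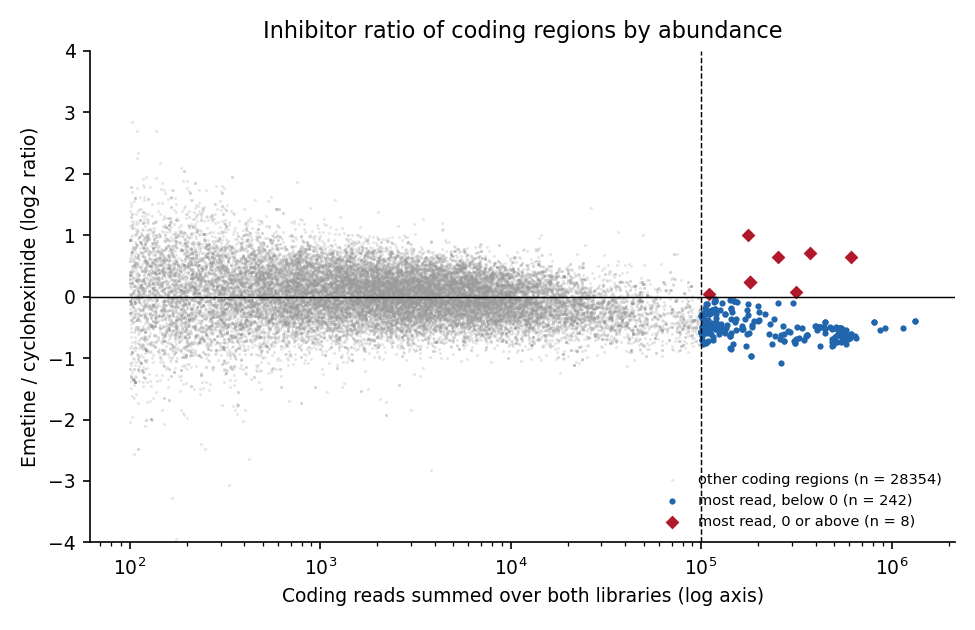
Log2 ratio of emetine over cycloheximide against summed coding reads (log axis), 1 point per coding region with at least 100 reads; 1 region lies beyond the axis. To the right of the dashed line at 100000 reads, 242 of the 250 most read regions (blue) lie below 0 and 8 (red diamonds) at 0 or above.

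Within the members, the ratio was lower above 200000 reads. The 145 members with 100000 to under 200000 summed reads had a median log2 ratio of -0.48 (quartiles -0.57 and -0.27), and 24 of them (16.6%) were at least 1.5-fold lower. The 35 members with 200000 to under 400000 reads had a median of -0.62 and 19 at least 1.5-fold lower (54.3%). The 70 members with 400000 or more reads had a median of -0.61 (quartiles -0.66 and -0.51), of which 38 were at least 1.5-fold lower (54.3%). The step lay between the first of these bands and the others, which had nearly equal medians. The Spearman correlation of summed reads with the log2 ratio was -0.32 over members and -0.20 over all coding regions compared, again as descriptions. Nothing marks the threshold itself. The 3 sets of counts just inside it had 100275, 100362 and 100715 summed reads and log2 ratios of -0.32, -0.58 and -0.34. The 3 just outside had 99985, 99554 and 99227 reads and log2 ratios of -0.66, -0.41 and -0.21.

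The lowest ratio belonged to ENSMUST00000052776, of rank 93 by reads, for which neither leader nor trailer was counted. It had 207557 coding reads with cycloheximide and 55946 with emetine, 2.11-fold lower on the scaled counts (95% exact counting interval 2.09 to 2.13). Next came ENSMUST00000135573, with 142395 and 41235 coding reads, 1.97-fold lower (interval 1.94 to 1.99); another member has the same coding counts. These intervals cover counting error alone, and amplified copies of a footprint are not independent. The leader of ENSMUST00000135573 did not follow its coding region: it held 5183 reads with cycloheximide and 4387 with emetine, a log2 ratio 1.55 above that of the coding region. Its trailer held 140 and 133 reads and lay 1.71 above it.

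The exceptions to the low ratio were 8 members at a log2 ratio of 0 or above (3.2%), where all coding regions compared have 50.0% by the scaling. ENSMUST00000082402 stood highest and was the sole member with more raw reads under emetine: 82102 with cycloheximide and 93938 with emetine, 2.01-fold higher after scaling (interval 1.99 to 2.03). It has no counted leader or trailer. The 16 other members without either part had log2 ratios below 0, and the 17 together had a median of -0.63.

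Of the other exceptions, 3 members are tied to each other by shared counts. ENSMUST00000176551 had 194257 and 181223 coding reads with cycloheximide and emetine, 1.64-fold higher (interval 1.63 to 1.65). The tenth most read member had 325586 and 289253 coding reads, 1.56-fold higher (interval 1.55 to 1.57), and its trailer holds the same 1763 and 1711 reads as that of ENSMUST00000176551. The member of rank 97 had 133380 and 119095 coding reads, 1.57-fold higher (interval 1.56 to 1.58). It shares with the tenth a leader of 42883 and 22455 reads, and its trailer of 199289 and 185046 reads is close in size to the coding region of ENSMUST00000176551. Whether these stretches overlap on the genome was not tested. Without these 3 members, 5 of 247 (2.02%) lay at 0 or above.

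The leader shared by ranks 10 and 97 also differed from most. This leader of 42883 and 22455 reads had a log2 ratio of -0.12, which is -0.76 against the coding region of the tenth member and -0.77 against that of rank 97. Most leaders of members lay on the other side of 0, as given below. The last 4 exceptions were nearer 0. A pair with 108721 and 108304 reads with cycloheximide and 72578 and 72334 with emetine had log2 ratios of 0.23 in both, and the same trailer counts, 19 and 57. Rank 82 (196375 and 117463 reads) lay at 0.072 and rank 196 (69587 and 40889) at 0.046. Scaled to total coding counts, 36 members lay at 0 or above, as did 20661 of all 28604 coding regions compared. The number of members at least 1.5-fold higher was 4 under each scaling tried. Over all coding regions compared that number ran from 2257 to 5754 across the scalings.

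Leaders carried few reads for each coding read. A leader was counted for 221 members, of which 18 had 0 reads in both libraries, 39 had 1 to 99 and 164 had at least 100 summed reads. Over the 221, the median was 0.337 leader reads per 100 coding reads with cycloheximide (quartiles 0.0261 and 1.70) and 0.670 with emetine (quartiles 0.0651 and 2.98). In the comparison class the medians were 2.39 and 2.93. The members' leaders thus held fewer reads per coding read than the class with either inhibitor. The emetine value was higher than the cycloheximide value in members and in the class. Coding reads both divide these values and chose the members, so low values in members are favoured by the selection. Parts were not divided by length, so a short leader cannot be told apart from a sparsely occupied one.

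The coding region was lower with emetine in members while the leader was not. Among the 164 leaders with at least 100 reads the median log2 ratio was 0.38, against 0.39 in 6029 leaders of the comparison class and 0.38 in 2686 leaders of transcripts with 10000 to under 100000 coding reads. Measured against its own coding region, the leader was higher with emetine by a median log2 difference of 0.85 (1.81-fold; quartiles 0.47 and 1.37), against 0.35 in the comparison class (1.27-fold). The difference was above 0 in 152 of 164 leaders (92.7%). In the class it was above 0 in 68.9%. At least 2-fold above their own coding region were 67 leaders (40.9%), against 19.2% of all leaders compared, and 2 were at least 2-fold below. Between classes, the wider difference in members thus went with lower coding ratios at nearly equal leader ratios. Within the members the leader ratio was not level. Its median was 0.29 for 100000 to under 200000 coding reads, 0.47 for 200000 to under 400000 and 0.84 for 400000 or more. The coding ratio inside the leader difference comes from counts that chose the members, and the leader reads do not. Over all 203 leaders with any read, 178 (87.7%) were higher per coding read with emetine. The share was 60.7% over all coding regions compared and 60.8% in the comparison class. With 10000 to under 100000 coding reads it was 74.9%.

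**Figure D3:**
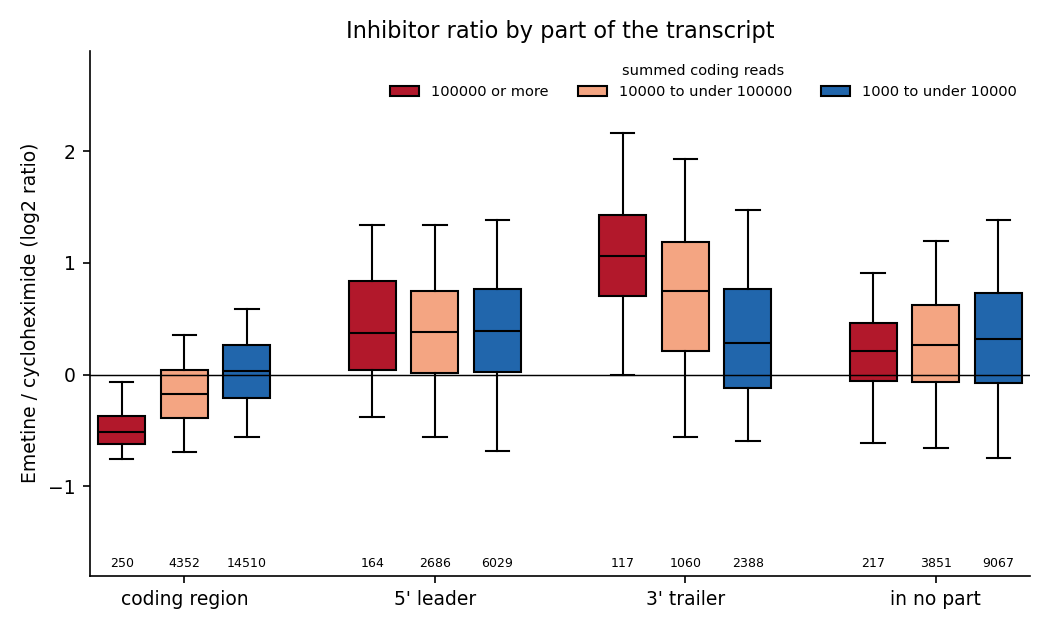
Log2 ratio of emetine over cycloheximide for coding regions, leaders, trailers and reads in none of these parts, in 3 classes of summed coding reads; boxes span the quartiles with the median, whiskers the 5th to 95th percentile, and the numbers below count regions or parts with at least 100 reads. Coding medians go from 0.028 to -0.18 and -0.52 with abundance, leader medians stay at 0.38 to 0.39, and trailer medians go from 0.28 to 0.75 and 1.06.

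Single leaders with at least 100 reads differed widely. Rank 49 had 2379 leader reads with cycloheximide and 4691 with emetine, beside 360772 and 144815 coding reads: 0.659 and 3.24 leader reads per 100 coding reads, and a log2 difference of 2.30. Rank 87 had the largest difference among these leaders, 2.50, with 164 and 354 leader reads against 212309 and 80905 coding reads. In both, the leader had more raw reads under emetine although that library is the shallower one. At the other end of the 164 leaders, that of rank 134 held 308 and 36 reads, a log2 difference of -1.50. Among leaders with at least 100 reads, 12 lay at or below 0.

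The largest leader loads also belonged to few members. Leaders with 10 or more reads per 100 coding reads numbered 5 with cycloheximide and 13 with emetine. Rank 97, one of the exceptions, had 32.2 and 18.9, and rank 192 had 19.0 and 28.0 (14466 and 10097 leader reads). The 10 leaders with the most reads held 40.3% of all leader reads of members. Summed over members with a counted leader, leader reads were 1.07 per 100 coding reads with cycloheximide and 1.95 with emetine; without those 10 they were 0.648 and 1.32.

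Transcripts with the same coding counts could differ in their leader. Whether they share a coding region was not tested. Of 21 groups of members with exactly equal coding counts and several counted leaders, 20 had leaders with different read numbers, and in 9 of them the largest and smallest leader differed at least 10-fold in summed reads after adding 1 read. In the largest set, 11 transcripts had 72709 and 27653 coding reads each. One of its leaders held 7015 and 4162 reads, a log2 difference of 0.64. Another leader of that set held 133 and 18 reads, a log2 difference of -1.47. Leader values thus differed between transcripts with the same coding counts.

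Trailers carried very few reads for each coding read with cycloheximide, and shifted more than leaders with emetine. A trailer was counted for 229 members, of which 10 had 0 reads in both libraries, 102 had 1 to 99 and 117 had at least 100. Over the 229, the median was 0.0345 trailer reads per 100 coding reads with cycloheximide (quartiles 0.0117 and 0.0947) and 0.0957 with emetine (quartiles 0.0333 and 0.276). The comparison class had 0.313 and 0.457. Trailers of members thus held fewer reads per coding read than those of the class under both inhibitors, with the limits of selection and length given for leaders. In raw reads they were not emptier: 10 of 229 had 0 reads in both libraries, against 2168 of 13903 in the class.

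Among the 117 trailers with at least 100 reads, the median log2 ratio was 1.06, against 0.28 in 2388 trailers of the comparison class. Against the own coding region the median log2 difference was 1.52 (2.87-fold; quartiles 1.05 and 1.83), against 0.24 in the class. It was above 0 in 116 of 117 (99.1%), against 63.7% of all trailers compared and 65.7% of the class. At least 2-fold above were 94 trailers (80.3%), against 22.1% of all trailers compared. The minimum is on summed reads, so trailers that are high with emetine pass it more readily, and these counts are descriptions. With at least 500 trailer reads the members' median difference was 1.15. Over all 219 trailers with any read, 204 (93.2%) were higher per coding read with emetine. The share was 57.0% over all coding regions compared and 56.7% in the class. It was 72.2% with 10000 to under 100000 coding reads. In 76 of 93 members with at least 100 reads in both parts, the trailer difference exceeded the leader difference, by a median of 0.68 over the 93. No such count is given for other transcripts, so it has no background. Over partly different transcripts, the median leader and trailer differences were 0.35 and 0.24 in the class. With 10000 to under 100000 coding reads they were 0.56 and 1.03.

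The minimum of 100 reads selects different trailers in the classes, since a member can pass with far fewer reads per coding read. Trailers with 0.1 to under 1 read per 100 coding reads could be set side by side with those of coding regions with 10000 to under 100000 reads. Their median difference was 1.48 in 82 members and 1.24 in 544 others. No trailer of the comparison class with at least 100 reads fell in that stratum. From 1 to under 10 reads per 100, the medians were 0.66 in 2 members, 1.01 in 374 of the middle class and 0.64 in 988 of the comparison class. From 10 reads upward they were 0.011 in 2 members, 0.013 in 142 and 0.054 in 1400. The trailer difference thus was larger where the trailer was emptier, in each class, and in the shared stratum the members exceeded the middle class by less than the classes differ as a whole. The strata were chosen after seeing the data.

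For leaders with at least 100 reads, 2 strata held all 3 classes. From 1 to under 10 reads per 100 coding reads, the median leader difference was 0.80 in 81 members, 0.51 in 1842 of the middle class and 0.33 in 2914 of the comparison class. Their median coding ratios were -0.49, -0.16 and 0.032, and their median leader ratios 0.37, 0.37 and 0.35. In that stratum the coding ratio differed between classes while the leader ratios were close. From 10 reads per 100 upward, the median leader difference was 0.36 in 6 members, 0.56 in 417 of the middle class and 0.37 in 3115 of the comparison class. The median leader ratios there were -0.082, 0.39 and 0.42. Ranks 10 and 97 are among these 6 members and hold the same leader counts, at a log2 ratio of -0.12. A repeated leader thus enters the member medians of this stratum, and nothing is read from them.

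**Figure D4:**
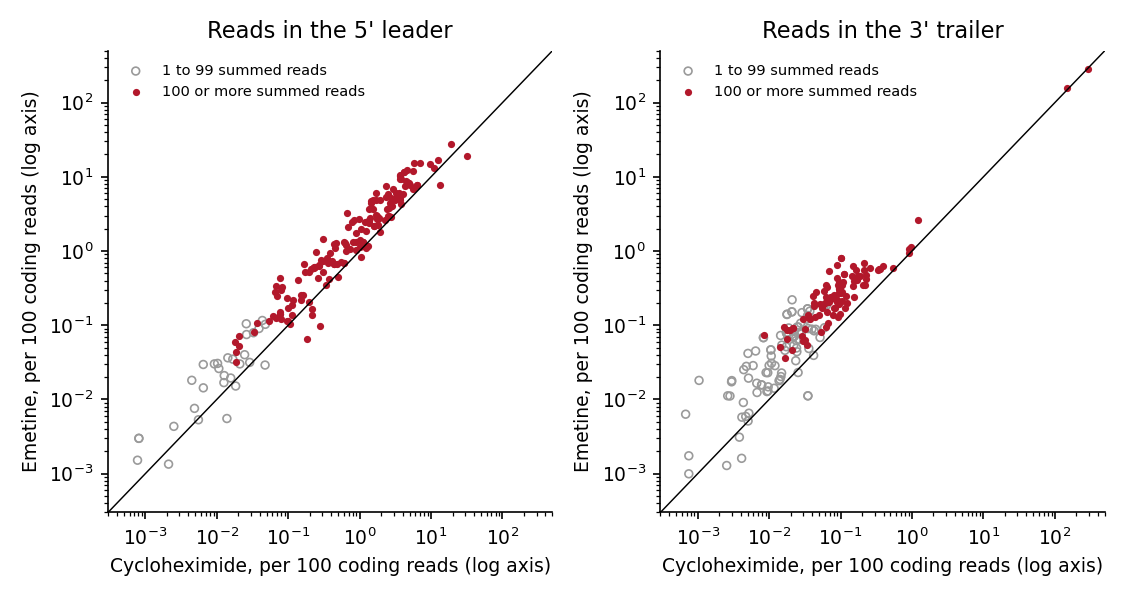
Reads in the leader and in the trailer per 100 coding reads of the same member, emetine against cycloheximide (both axes log), with filled points for parts with at least 100 summed reads; 194 leaders and 211 trailers with reads in both libraries are drawn, and 27 and 18 with 0 reads in a library are not. Most points lie above the line of equal values: 152 of 164 leaders and 116 of 117 trailers with at least 100 reads.

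Among trailers with at least 100 reads, the highest differences rested on modest counts. Rank 48 had 31 and 108 trailer reads beside 364476 and 147336 coding reads, a log2 difference of 3.09. Rank 85 had 159 and 431, a difference of 2.97. Rank 197 had 77 and 281, a difference of 2.96. The minimum is on summed reads, and ranks 48 and 197 had fewer than 100 with cycloheximide. They thus passed it through emetine, where they are high, and their differences are descriptions. In all of these the emetine library had more raw trailer reads than the deeper cycloheximide library.

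Trailers that outweighed their coding region occurred in 2 members. Rank 138 had 302709 and 111320 trailer reads beside 104383 and 39309 coding reads, or 290.0 and 283.2 per 100, and its trailer difference of -0.034 was the sole one below 0 among the 117 trailers with at least 100 reads. The other was rank 97, described above, with a difference of 0.056. In both, the trailer had nearly the same ratio as the coding region. The 10 largest trailers held 95.8% of the trailer reads of members, so sums over members say little of the rest. Without those 10, trailers held 0.0380 reads per 100 coding reads with cycloheximide and 0.114 with emetine.

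Some reads of a transcript lie in none of the counted parts. In the 217 members with all 3 parts this remainder was the largest load outside the coding region, with a median of 6.76 reads per 100 coding reads with cycloheximide (quartiles 3.84 and 12.6) and 11.1 with emetine (quartiles 5.52 and 22.8). The comparison class had 5.51 and 6.92. All 217 had at least 100 such reads. Their median log2 ratio was 0.21, against 0.32 in the class, and the median difference from the own coding region 0.72 (1.65-fold), against 0.37. It was above 0 in 196 of 217 (90.3%), against 74.2% of all transcripts compared and 72.2% of the class. With 10000 to under 100000 coding reads it was above 0 in 80.9%. At least 2-fold above were 52 members (24.0%), against 15.9% of all transcripts compared. The highest difference was 1.83, at rank 31, with 3972 and 4982 such reads. The lowest was -1.31, at rank 97, with 7651 and 2752. No source used here states how the bounds of the parts were drawn, and where on the transcript these reads lie was not analysed.

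The parts divided the members by abundance. In the 70 members with 400000 or more reads, leaders held a median of 0.0184 reads per 100 coding reads with cycloheximide and 0.0527 with emetine. In the 145 members with 100000 to under 200000 reads the medians were 0.640 and 1.12, and in the 35 between them 1.31 and 3.0. Per coding read, the most read members thus had the emptiest leaders and the middle band the fullest, in bands drawn by those same coding reads. Trailers followed the same order, with 0.00891, 0.0487 and 0.0883 reads per 100 coding reads with cycloheximide in the top, lowest and middle band. The remainder did not, with 6.15, 7.71 and 6.01. The top band also differed in its leader difference, with a median of 1.37 over 31 leaders with at least 100 reads. The difference was 0.68 over 107 leaders in the lowest band and 0.94 over 26 in the middle one. The median log2 ratios of these leaders were 0.84, 0.29 and 0.47 in the same order. The top and middle bands had nearly equal median coding ratios, -0.61 and -0.62.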

How the data were processed

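Footprint libraries of E14 cells treated with cycloheximide or emetine were analysed. The deposited values are raw read counts that the authors made per transcript and, per the file headers, for its coding region, 5' leader and 3' trailer. Per the submitters' processing notes, the software included TopHat2 2.0.7, Bowtie2 2.0.6 and CASAVA 1.8, listed with no task. No source used here names the counting program or annotation. Total transcript counts were 342552347 and 188700177; repeated isoform counts make these no measure of true depth.

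A part was used where both libraries list it. Emetine counts were multiplied by 1.76, the median scaling described in the report, and 0.5 scaled reads were added before taking log2. Parts with at least 100 summed reads were compared with their own coding region, which does not depend on scaling. Intervals are exact (Clopper-Pearson, 95%). The remainder is the transcript count minus the 3 parts. The code recovered known changes in simulated counts. The simulated coding changes were larger than the members' median, and regions were drawn independently with counting error alone. It therefore checks the code and not the case of regions that share reads. Python 3.11.15, pandas 2.3.3, scipy 1.17.1 and, for TMM scaling, edgeR 4.0.16 were used.

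Members and lists were chosen with earlier results of these data known. The planned naming of regions covered more ends of each distribution; without gene names, identifiers are printed for the 2 highest and 2 lowest coding ratios, and other regions were picked as extremes or by rank after their values were seen. Planned gene lists were not used. HEK libraries were left out. Alternatives are given in the closing section.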

Additional observations from a re-analysis of the deposited data

How the results depend on the processing

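No paired analysis was possible because the inhibitors have a single library each. Medians outside the rank-based 95% interval of the reported value counted as moved; that interval treats members as independent and is narrow. Of 63 recomputed values, 43 stayed, 19 moved and 1 changed sign. The members' median coding log2 ratio was -0.28 scaled to total coding counts, -0.47 scaled to total transcript counts, -0.43 for 50000 or more reads, -0.61 for 200000 or more, -0.49 for the 250 regions with the most emetine reads and -0.47 for whole transcripts. Members at least 1.5-fold lower were 2.0% scaled to total coding counts and 54.3% at 200000 or more reads. Those at 0 or above were 14.4% scaled to total coding counts, where 20661 of all 28604 regions compared lay there. They were 2.02% without the 3 tied exceptions, an alternative added after seeing the data. Counting each set of equal rounded counts once gave shares of 46.8% with cycloheximide and 41.5% with emetine; this also merges unrelated regions with few reads, whereas merging exactly equal counts gave the shares in the report. The leader difference was 1.27 and the remainder difference 0.84 at 200000 or more reads. The trailer difference was 1.15 with at least 500 trailer reads and 1.37 for members with 50000 or more coding reads. With 10000 to under 100000 reads as the comparison class, its median coding ratio changed sign to -0.18, and the leader, trailer and remainder differences were 0.56, 1.03 and 0.48. The causes were not tested. No alternative changed the sign of a members' median.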
